A study of Mus musculus with 16 samples.

Results

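The distal colon of HSCR mice was compared with the proximal colon of HSCR mice by RNA-seq of the longitudinal muscle and myenteric plexus (LMMP), the outer muscle sheet of the gut wall with the nerve network attached to it. HSCR mice carry the genotype Ednrb -/-, lack functional endothelin receptor type B, and model Hirschsprung disease. The 8 HSCR libraries, 4 labelled proximal and 4 labelled distal, were all the HSCR libraries of the 16 in the series, and the other 8 came from WT mice, again 4 per segment. The study's methods give a targeted null allele (Ednrb tm1Ywa) on a hybrid C57BL6/J and 129Sv background, and mice of both sexes between 2 and 4 weeks of age. HSCR and WT mice therefore differ at Ednrb, while the proximal and distal HSCR groups share the null genotype and were labelled by segment. Those groups also differed in Y-linked reads, given below, and in the naming series of their libraries, 1 of which occurs among the HSCR libraries in the proximal group alone. The titles of the distal libraries name the distal colon but their tissue entries name the proximal colon, and the titles were followed. Nothing in the labels says that libraries of 1 number came from 1 mouse, nor that all came from separate mice, so p-values measure the spread between these libraries.

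Endothelin 3 made in the gut wall acts on EDNRB on migrating neural crest cells and keeps them from differentiating too early while they colonise the gut from its oral to its anal end. Without the receptor the crest cells stop short, so the most distal bowel has no enteric ganglia (aganglionosis), whereas the bowel above it is ganglionic and is distended by the functional obstruction below. Aganglionic colon still receives nerve fibres from outside the gut, whose Schwann cells share many genes with enteric glia. The comparison of the segments therefore asks how muscle layer with and without its own plexus differs within HSCR mice, and the same comparison in WT mice gives the difference between the segments of a colon with ganglia throughout.

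Before any result, the segment of each library was checked against genes that mark position. A position score was built from the WT libraries alone, as 1 mean log2 CPM (read count scaled to the library size) minus another. The first was over the 25 genes of smallest p among those higher in WT distal than WT proximal colon. The second was over the 25 of smallest p among those lower. The score ran from -2.54 to -2.08 in WT proximal and from 1.37 to 2.53 in WT distal libraries. These WT libraries chose the genes, so their separation was set in advance and their ranges may be too narrow for other libraries. The score also holds muscle genes, such as Mybpc1 on the distal and Myl4 on the proximal side. Striated muscle genes differed between libraries, as given below, and their part in the score was not tested. HSCR proximal libraries 3 and 4 scored -1.86 and -2.20, near the WT proximal values, and HSCR distal libraries 2 and 3 scored 2.37 and 2.71, near the WT distal values. The library labelled HSCR proximal 1 scored 0.75 and the library labelled HSCR distal 1 scored -2.11, each on the side of the other segment. HSCR proximal 2 and HSCR distal 4 lay between the WT ranges, at -0.52 and -0.71. Hoxd13, the most posterior gene of its HOX cluster and a marker of the hindgut end, is itself a gene of the score and so no independent check. It was at 125 CPM in HSCR proximal 1 and 0.629 CPM in HSCR distal 1. The other 3 proximal libraries held 0.643 to 2.49 CPM of it and the other 3 distal libraries 14.1 to 210 CPM. Both libraries numbered 1 thus went against their labels, and whether their labels were exchanged cannot be told from these data. Gene lists are described with all 8 libraries and with the 6 libraries numbered 2 to 4, and single genes by their levels. Leaving out this pair was chosen with its position and neuronal genes known. A segment difference among the 6 is therefore partly set by that choice, for position genes and equally for neuronal, glial and transmitter genes, and the counts with 6 libraries are descriptions.

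**Figure D1:**
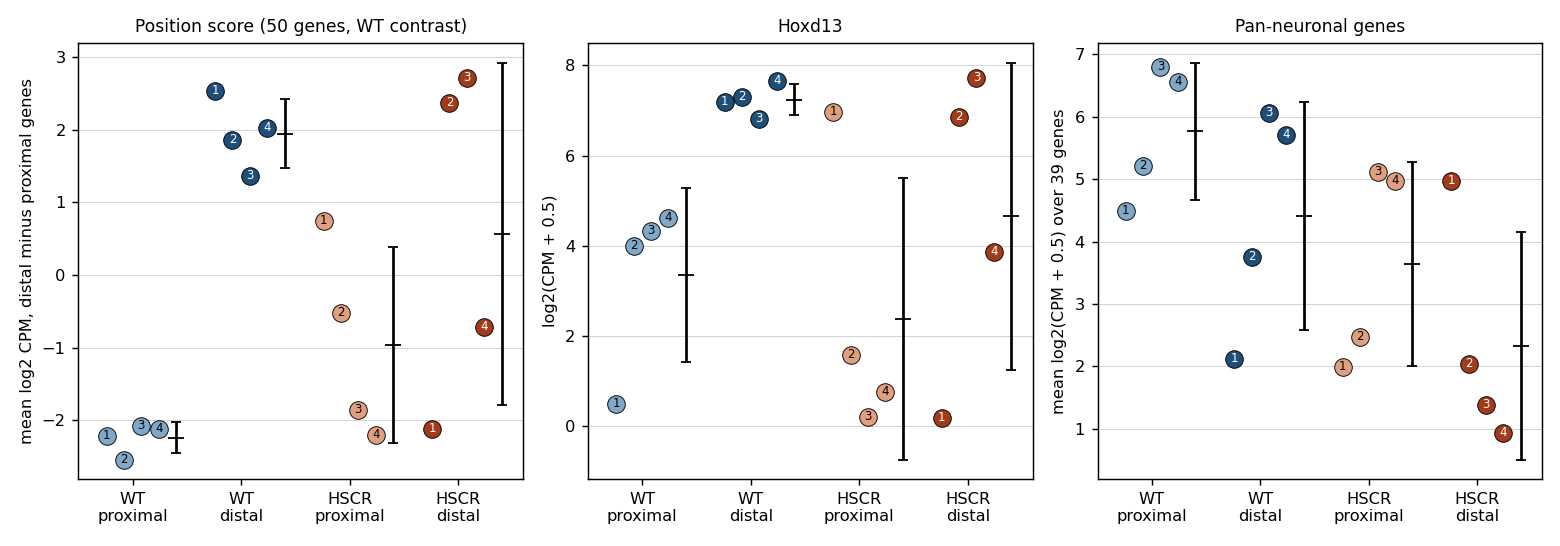
Position score (left), Hoxd13 as log2(CPM + 0.5) (middle) and mean log2(CPM + 0.5) over the 39 pan-neuronal genes (right) in all 16 libraries; numbered circles are replicates, and the bar is the mean ± SD of 4 libraries. HSCR proximal 1 (0.75) and HSCR distal 1 (-2.11) sit on the side of the other segment in the position score, and HSCR distal 1 has a pan-neuronal level of 4.97, beside 5.12 and 4.96 in HSCR proximal 3 and 4.

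Depth, mitochondrial share and tissue markers also differed between the libraries and did not follow the segment, while Y-linked reads did in part. The 8 HSCR libraries held 22939717 to 45831881 counted reads, and mitochondrial genes took 5.56% to 20.1% of them, the highest share being in HSCR proximal 4. In WT libraries that share was 4.32% to 49.8%. Colon epithelium genes, which mark mucosa left on the muscle sheet, had a mean log2 CPM of 8.70 in HSCR proximal 2 and 7.36 in HSCR distal 3, against 1.89 to 6.14 in the other 6. Smooth muscle genes averaged 6.28 in HSCR proximal 2 and 8.90 to 9.96 in the other 7. Striated muscle genes averaged 5.81 in HSCR proximal 1 and 4.73 in HSCR distal 2, and 0.32 to 0.97 elsewhere. The Y-linked Ddx3y was at 0 and 0.143 CPM in HSCR proximal 3 and 4 and at 51.4 to 150 CPM in 5 other HSCR libraries, so the libraries numbered 4 came from different mice. HSCR distal 3 held 3.51 CPM of it, between these ranges. HSCR proximal 3 and 4 were also the proximal libraries richest in neuronal genes, given below. HSCR distal 1, rich in neuronal genes too, was in the upper Ddx3y range. Y-linked reads and segment were thus partly confounded, and their parts were not tested.

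**Figure D2:**
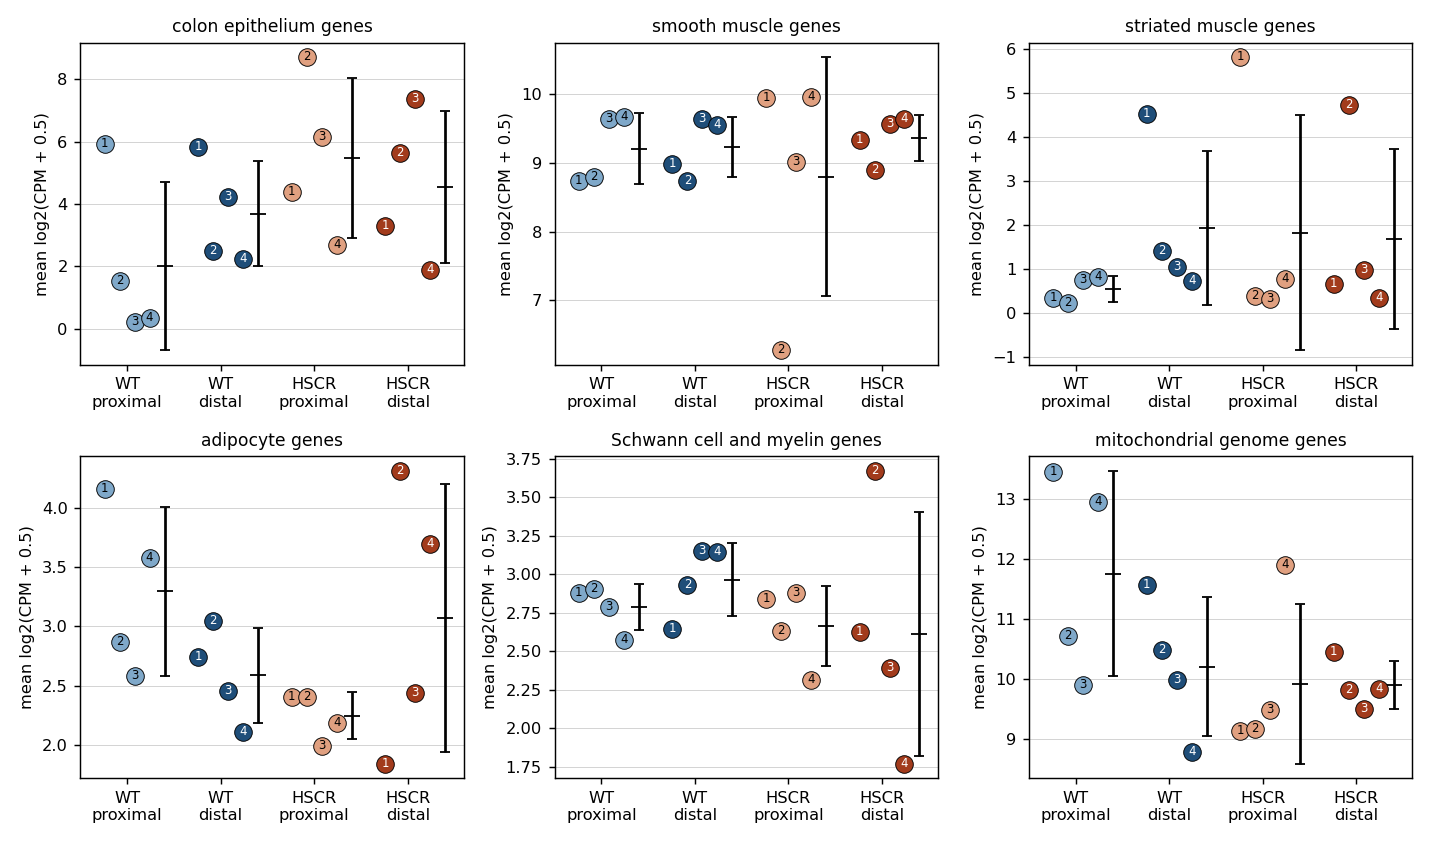
Mean log2(CPM + 0.5) over 6 lists of tissue marker genes in all 16 libraries; numbered circles are replicates and bars the mean ± SD of 4 libraries. HSCR proximal 2 is highest in colon epithelium genes (8.70) and lowest in smooth muscle genes (6.28), and HSCR proximal 1 and HSCR distal 2 stand above the other HSCR libraries in striated muscle genes.

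In the comparison of all 8 libraries no gene passed the test, and in the comparison of 6 libraries none did either. Each gene was tested by edgeR's quasi-likelihood method with p adjusted after Benjamini and Hochberg, and a gene counted as changed with an adjusted p under 0.05 and a difference beyond 2-fold. With 8 libraries 17086 genes were tested (0% called), the smallest adjusted p was 0.9998, and 121 genes were higher and 133 lower in distal colon at an unadjusted p under 0.05, which is 0.708% and 0.778% of the tested genes. These 254 genes compare with 854.3 that evenly spread p-values would give. With 6 libraries 17316 genes were tested (0% called), the smallest adjusted p was 0.503 for Calb2, and 307 genes were higher (1.77%) and 543 lower (3.14%) at the unadjusted limit. The biological coefficient of variation was 0.740 and 0.743. Under DESeq2, which was run as an alternative, 4 genes passed both limits with 8 libraries, and 273 of 19717 genes with an adjusted p passed with 6 libraries, 55 higher (0.279%) and 218 lower (1.11%). RUVr, which estimates unwanted factors from the residuals and is named in the study's methods, called 349 genes with 8 libraries and 4 factors, which leaves 2 residual degrees of freedom, and 4 genes with 1 factor. Leaving out HSCR proximal 2 from the 6 gave 10 calls, and leaving out any other library gave 0. These libraries were left out under the quasi-likelihood test only, so how far the DESeq2 and RUVr calls rest on 1 library was not tested. The number of calls depended on the tool, so the levels per library are given first below and the tool is named beside each call.

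Ednrb, on chromosome 14 (104052061 to 104081838, mm39), was read in every HSCR library. Its levels were 7.85, 12.6, 36.3 and 35.8 CPM in HSCR proximal 1 to 4 and 97.0, 5.55, 5.83 and 9.57 CPM in HSCR distal 1 to 4. The groups overlapped, because the library labelled HSCR distal 1 was the highest of all 8, while the other 3 distal libraries and HSCR proximal 1 were the 4 lowest. The log2 fold change, distal minus proximal here and throughout, was 0.34 ± 1.01 (SE, adjusted p = 0.9998) with 8 libraries, while the difference of the mean log2 CPM had the other sign (-0.49, exact two-sided permutation p = 0.714). With 6 libraries it was -2.05 ± 0.55 (unadjusted p = 0.00776, adjusted p = 0.920, quasi-likelihood test), and the exact permutation p was 0.1, the smallest that 3 against 3 allows. Ednrb was also lower in WT distal than in WT proximal colon, at 12.2 to 40.2 against 33.9 to 67.7 CPM (-1.15 ± 0.40, adjusted p = 0.906). The counts cover the whole gene, so they do not show which part of the transcript the null allele still makes and are no check of the genotype.

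The other tested members of the endothelin system overlapped between the segments with 8 and with 6 libraries. Ednra, the receptor of vascular and gut smooth muscle, was at 58.8, 15.2, 46.4 and 39.4 CPM in proximal and 46.8, 3.69, 20.3 and 23.5 CPM in distal libraries 1 to 4, with a log2 fold change of -0.78 ± 0.68 with 8 and -1.13 ± 0.75 with 6 libraries (adjusted p = 0.9998 and 0.920, quasi-likelihood test). Edn3, the ligand of EDNRB in the gut, was at 49.9, 3.22, 21.9 and 12 CPM in proximal and 27.7, 34.0, 13.4 and 28.7 CPM in distal libraries. Its log2 fold change was 0.24 with 8 and 1.01 with 6 libraries, neither past the test, and 1.26 in WT mice. Edn1, the ligand made by endothelium, Edn2, and Ece1, which cleaves the precursors, had log2 fold changes of 0.47, -1.72 and 0.066 with 8 and 0.57, -1.63 and 0.22 with 6 libraries. The converting enzyme Ece2 had at most 0.429 CPM in any HSCR library and was not tested.

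Genes of enteric neurons were low in the distal libraries numbered 2 to 4 and high in the library labelled HSCR distal 1. Elavl4, an RNA-binding protein of neurons, was at 3.07, 4.06, 48.4 and 40.2 CPM in HSCR proximal 1 to 4 and at 42.2, 0.447, 0.486 and 0.0922 CPM in HSCR distal 1 to 4. Only 2 of the 4 libraries labelled proximal were therefore rich in Elavl4, while HSCR proximal 1 and 2 held less of it than these and more than HSCR distal 2 to 4. Nsg2, a vesicle trafficking protein of neurons, was at 5.80, 12.7, 132 and 121 CPM in proximal and 152, 1.23, 1.43 and 2.33 CPM in distal libraries. Fewer neurons and less RNA per neuron cannot be told apart in such bulk samples. With 6 libraries the log2 fold changes were -6.55 ± 1.21 for Elavl4 and -5.77 ± 0.99 for Nsg2, each with an adjusted p of 0.920 in the quasi-likelihood test and past both limits in DESeq2. With 8 libraries they were -1.16 and -0.81.

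Uchl1, an abundant ubiquitin hydrolase of neurons, kept some level in the distal libraries. It was at 11.6, 38.2, 181 and 217 CPM in proximal and 223, 25.8, 7.45 and 1.98 CPM in distal libraries. Of the 39 pan-neuronal genes 38 were tested, and with 6 libraries 37 had a negative log2 fold change with a median of -3.45, where the median of all tested genes was -0.07. At an unadjusted p under 0.05, 23 of the 38 were lower and 0 higher, beside 3.14% lower among all genes, and 17 had all 3 distal libraries below all 3 proximal ones, beside 5.58% of all genes. With 8 libraries the median was -0.87, 34 of 38 were negative and 0 passed the unadjusted limit. DESeq2 called 16 of them lower with 6 libraries, beside 1.11% of all genes. The mean log2 CPM over the list was 1.99, 2.48, 5.12 and 4.96 in proximal and 4.97, 2.04, 1.38 and 0.93 in distal libraries. HSCR proximal 1 was thus below HSCR distal 2 in this list, and in Uchl1 as well.

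Genes of transmitters and peptides, which mark the working classes of enteric neurons, had the lowest median of the 35 gene lists with 6 libraries. Vip, the peptide of inhibitory and secretomotor neurons, was at 6.62, 18.9, 1607 and 871 CPM in proximal and 386, 0.820, 12.4 and 0.346 CPM in distal libraries. Nos1, the nitric oxide synthase of inhibitory motor neurons, was at 19.9, 10.1, 334 and 339 CPM in proximal and 118, 4.25, 2.56 and 1.08 CPM in distal libraries. HSCR proximal 3 and 4 and HSCR distal 1 thus held the high levels of both genes, whatever the label. Pdyn, which encodes the opioid precursor prodynorphin, was at 83.3 and 22.3 CPM in HSCR proximal 3 and 4 and 29.2 CPM in HSCR distal 1, and had 0, 8 and 0 counts in HSCR distal 2 to 4. Ache, which breaks down acetylcholine, was at 7.17, 6.33, 42.6 and 56.5 CPM in proximal and 40.6, 2.46, 3.29 and 4.82 CPM in distal libraries. With 6 libraries 20 of the 22 tested members were negative (median -3.99), and 13 were lower at the unadjusted limit, beside 3.14% of all genes. DESeq2 called 10 lower with 6 libraries, beside 1.11% of all genes. With 8 libraries the median was -0.41 over 21 tested members and 0 passed the unadjusted limit.

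The gene with the smallest p of the 6-library comparison was Calb2, which encodes calretinin, a calcium-binding protein whose staining is used to look for ganglion cells in rectal biopsies. It was at 0.375, 22.8, 42.8 and 67.7 CPM in HSCR proximal 1 to 4 and 9.92 CPM in HSCR distal 1, with 0, 2 and 0 counts in HSCR distal 2 to 4. The p was 2.9e-05 and the adjusted p 0.503 (quasi-likelihood test), and Calb2 was the 1 gene that passed when no filter on low counts was applied. Tm4sf4 had 0, 1 and 0 counts and Gabrg3, a GABA-A receptor subunit, 0, 0 and 2 counts in HSCR distal 2 to 4, while HSCR proximal 2 to 4 held 3.55 to 22.1 and 2.23 to 15.5 CPM. Chrna3, the nicotinic receptor subunit of autonomic ganglia, was at 3.12, 4.31, 74.4 and 88.7 CPM in proximal and 41.2, 0.596, 0.324 and 0.438 CPM in distal libraries. Mapk10, a kinase found mainly in neurons, was at 5.67 to 25.5 CPM in HSCR proximal 2 to 4 and 0.405 to 1.04 CPM in HSCR distal 2 to 4.

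**Figure D3:**
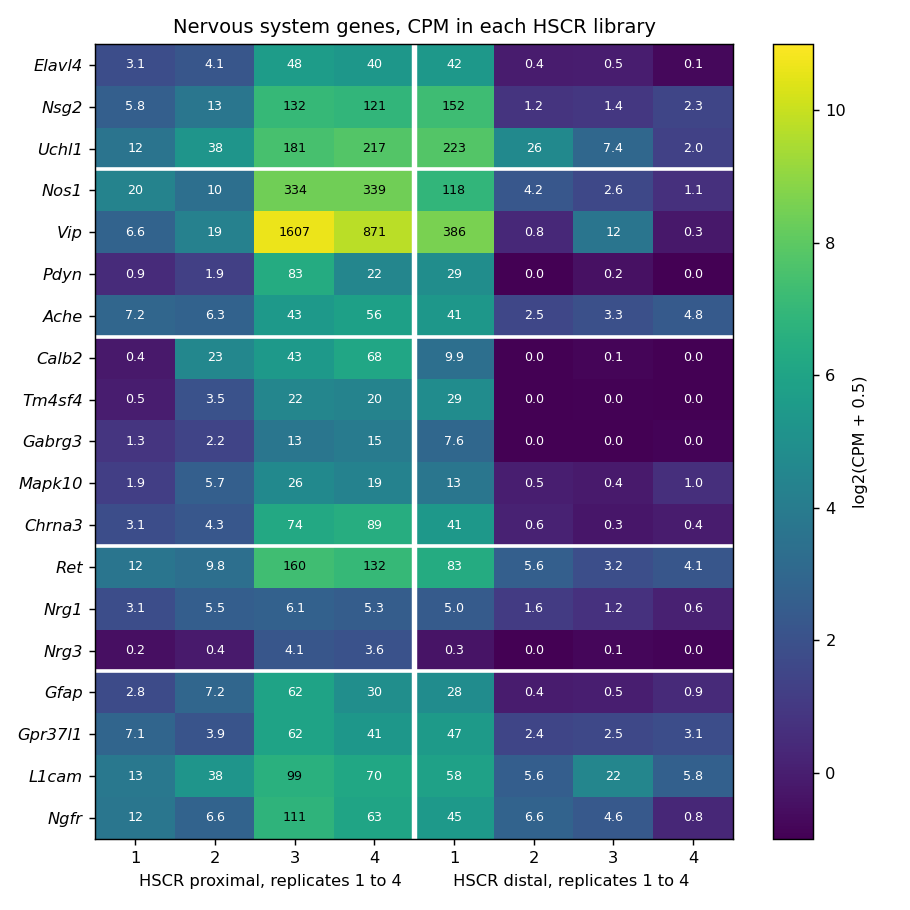
CPM of 19 nervous system genes (printed in each cell) in the 8 HSCR libraries, coloured by log2(CPM + 0.5), with replicates 1 to 4 of each segment as columns. In most rows HSCR proximal 3 and 4 and HSCR distal 1 hold the high levels and HSCR distal 2 to 4 low ones, whereas Nrg3 is at 0.286 CPM in HSCR distal 1.

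Ret, the receptor that enteric precursors need for GDNF, was high in HSCR proximal 3 and 4 and HSCR distal 1, as the neuronal genes were, whereas the neuregulins Nrg1 and Nrg3 followed other libraries. Ret was at 12.3, 9.84, 160 and 132 CPM in proximal and 83.1, 5.63, 3.21 and 4.10 CPM in distal libraries (-4.58 ± 1.03 with 6 libraries, adjusted p = 0.920 in the quasi-likelihood test, past both limits in DESeq2). Nrg1, a growth factor of glia and Schwann cells, was at 5.30 to 6.10 CPM in HSCR proximal 2 to 4 and 0.576 to 1.60 CPM in HSCR distal 2 to 4, and HSCR proximal 1 and distal 1 held 3.07 and 4.98 CPM. HSCR proximal 2 was thus level with HSCR proximal 3 and 4 in Nrg1, unlike in Ret. Nrg3 was at 0.402 to 4.12 CPM in HSCR proximal 2 to 4 and had 0, 3 and 2 counts in HSCR distal 2 to 4, and it was low in HSCR distal 1 too (0.286 CPM). Of the 18 tested genes of the GDNF family and neurotrophic factors, 12 were negative (median -0.45), 5 were lower and 0 higher at the unadjusted limit with 6 libraries, beside 3.14% lower among all genes. Of 19 tested with 8 libraries 1 was lower, beside 0.778% of all genes, and the median was -0.08.

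Gfap and Gpr37l1 were low in HSCR distal 2 to 4. Over the glial list as a whole these libraries lay on both sides of HSCR proximal 1 and above HSCR proximal 2. The mean log2 CPM of the list was 2.94, 2.48, 4.62 and 4.06 in proximal and 4.40, 3.13, 2.65 and 2.80 in distal libraries. Gfap, an intermediate filament of enteric glia, was at 2.80, 7.20, 62.0 and 29.9 CPM in proximal and 27.8, 0.447, 0.513 and 0.853 CPM in distal libraries (-5.79 ± 0.93 with 6 libraries, adjusted p = 0.920, quasi-likelihood test). Gpr37l1, a receptor of glia, was at 7.15, 3.88, 62.1 and 40.6 CPM in proximal and 46.5, 2.39, 2.51 and 3.11 CPM in distal libraries. Both were past both limits in DESeq2 with 6 libraries, and they were the 2 called of 25 glial genes, beside 1.11% of all genes called lower. Over the glial list the median was -0.79 with 21 of 25 negative, and 4 were lower at the unadjusted limit with 6 libraries, beside 3.14% of all genes. With 8 libraries the median was -0.25 and 0 passed that limit. The 19 tested Schwann cell and myelin genes had a median of 0.21 with 10 positive and 9 negative with 6 libraries, and 0.16 with 8.

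The 2 Schwann cell list members called by DESeq2 with 6 libraries were both lower in distal colon, beside 1.11% of all genes called lower. L1cam, an adhesion molecule of axons and their sheath cells, was at 37.8, 98.8 and 69.7 CPM in HSCR proximal 2 to 4 and 5.59, 22.0 and 5.83 CPM in HSCR distal 2 to 4. Ngfr, the low-affinity nerve growth factor receptor, was at 12.4, 6.58, 111 and 63.5 CPM in proximal and 45.2, 6.60, 4.56 and 0.761 CPM in distal libraries.

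Position genes did not follow the labels of the 6 libraries as a group, since HSCR distal 4 had a lower position score than HSCR proximal 2. Hoxd13, which did, had a log2 fold change of 6.30 ± 1.13 with 6 libraries (adjusted p = 0.920, quasi-likelihood test, past both limits in DESeq2) and 1.36 ± 1.84 with 8. Its neighbour Evx2, a homeobox gene beside the HOXD cluster, was at 18.2, 0.110, 0 and 0 CPM in proximal and 0, 9.28, 21.8 and 1.59 CPM in distal libraries. Hoxd12 was at 38.2, 0.622, 2.04 and 1.5 CPM in proximal and 1.77, 24.7, 18.0 and 0.738 CPM in distal libraries. HSCR distal 4 thus had more Hoxd13 and Evx2 than HSCR proximal 2 to 4, while its Hoxd12 lay between HSCR proximal 2 and HSCR proximal 4. Hoxa13 overlapped between the segments, at 6.52 to 38.3 against 10.2 to 51.0 CPM.

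The HOX genes of paralog groups 1 to 8, which mark more anterior gut, had a median of -1.05 with 6 libraries, and 3 of 20 tested members were lower at the unadjusted limit, beside 3.14% of all genes. With 8 libraries the median was -0.44 and 1 was lower, beside 0.778% of all genes. The 3 were Hoxb5 (-1.55 ± 0.53), Hoxa5 (-1.79 ± 0.63) and Hoxb8 (-2.46 ± 0.98), each with an adjusted p of 0.920 in the quasi-likelihood test. In WT mice the median of these genes was -1.24, and 20 of 21 were negative. Paralog groups 9 to 13 had a median of -0.12 with 6 libraries, with 7 of 14 tested members positive. At the unadjusted limit 2 were higher, beside 1.77% of all genes. With 8 libraries the median was 0.15, with 11 positive and 0 past that limit. Among other patterning factors, Tbx3 was at 42.3, 65.1 and 44.2 CPM in HSCR proximal 2 to 4 and 11.7, 8.93 and 19.9 CPM in HSCR distal 2 to 4. Isl1 was at 0.804, 0.165 and 1.32 CPM against 20.2, 8.12 and 3.57 CPM. Tbx3 and Isl1 were past both limits in DESeq2 with 6 libraries. Of the 24 patterning factors tested with 6 libraries 12 were positive and 12 negative, and of the 23 tested with 8 libraries 14 were positive.

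The upstream sequences of 2 genes are shown as examples, Hoxd13 of a position gene and Fmo2 of a gene that separated the 8 libraries by segment. Each is the 250 bases before the gene's start in the deposited table, read from mm39 on the gene's strand, 5′ to 3′. Capitals mark motif letters found on either strand, which are TATAAA for the first motif, known as the TATA box, while the second motif, known as the GC box, is spelled GGGCGG. Such letters are held by 11.6% and 39% of the 21906 windows of this length before protein-coding genes. Hoxd13 lies on chromosome 2 (window chr2:74498404-74498653) and Fmo2 on chromosome 1 (window chr1:162726296-162726545, minus strand).
Hoxd13: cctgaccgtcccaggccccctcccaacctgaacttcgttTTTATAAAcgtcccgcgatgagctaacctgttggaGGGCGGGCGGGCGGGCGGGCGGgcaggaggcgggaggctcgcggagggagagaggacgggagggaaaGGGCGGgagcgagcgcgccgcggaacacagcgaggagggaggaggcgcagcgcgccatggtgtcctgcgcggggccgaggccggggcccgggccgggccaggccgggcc
Fmo2: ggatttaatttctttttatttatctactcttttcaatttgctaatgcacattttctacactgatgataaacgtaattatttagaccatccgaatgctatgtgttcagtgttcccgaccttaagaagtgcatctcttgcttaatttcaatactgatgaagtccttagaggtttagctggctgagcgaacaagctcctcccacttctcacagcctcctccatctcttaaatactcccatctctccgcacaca
The Hoxd13 window held 6 GC boxes, several of them in 1 overlapping run, and a TATAAA that reads on both strands 211 bases before the start. Neither motif's letters were found in the Fmo2 window. These matches describe the letters and were not tied to the levels.

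Smooth muscle genes overlapped between the segments. Actg2, the main actin of gut smooth muscle, was at 23680, 1043, 10703 and 25828 CPM in proximal and 18235, 8416, 18252 and 17393 CPM in distal libraries. Acta2, smooth muscle α-actin, was at 1950 CPM in HSCR proximal 2 and 10532 to 21653 CPM in the other 7 HSCR libraries. With 6 libraries 25 of 29 tested smooth muscle genes were positive with a median of 0.32, and 0 passed the unadjusted limit, while HSCR proximal 2, the library lowest in all these genes together, is 1 of the 3 proximal libraries. Genes of the interstitial cells of Cajal, the pacemaker cells of the gut, had a median of 0.44 over 14 members, Pdgfra-positive cell genes of -0.08 over 10, and the ion channels and transmitter receptors of gut muscle of 0.08 over 45. The medians with 8 libraries were 0.11 for smooth muscle, 0.23 for Cajal cell, 0.04 for Pdgfra-positive cell and 0.07 for channel and receptor genes. Of these P2rx1, an ATP-gated channel, was at 0.219, 1.03 and 0.465 CPM in HSCR proximal 2 to 4 and 2.31, 9.01 and 3.34 CPM in HSCR distal 2 to 4, but at 5.05 and 5.83 CPM in the libraries numbered 1.

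Matrix genes showed no call in either comparison by the quasi-likelihood test. Col1a1, a chain of the main fibrillar collagen, was at 7314, 747, 6183 and 3992 CPM in proximal and 5870, 1481, 1709 and 1120 CPM in distal libraries. The mean was 4559 ± 2891 CPM in proximal and 2545 ± 2230 CPM in distal colon (SD, n = 4 each, -0.86 ± 0.80 on the log2 scale), and the groups overlapped because of HSCR proximal 2 and HSCR distal 1. Of 42 collagen chains tested with 6 libraries 28 were negative (median -0.58), 5 were lower and 1 higher at the unadjusted limit, beside 3.14% and 1.77% of all genes. With 8 libraries 30 of 41 were negative (median -0.44) and 0 passed that limit. Col9a2, a chain of collagen IX, was at 11.5, 7.39, 13 and 11.5 CPM in proximal and 22.8, 0.969, 0.971 and 3.30 CPM in distal libraries. It was lowest in HSCR distal 2 to 4, while HSCR proximal 1 and 2, which were also low in neuronal genes, held more of it. Col26a1 was lower as well (-2.44 ± 0.71 with 6 libraries), and Col4a3, a basement membrane chain, was higher (2.73 ± 0.68), at 0.331 to 0.439 CPM in HSCR proximal 2 to 4 and 2.13 to 3.17 CPM in HSCR distal 2 to 4. DESeq2 called these 3 collagens with 6 libraries, beside 1.11% of all genes called lower and 0.279% called higher.

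Sparc, an abundant matrix glycoprotein, was at 4109, 1004, 6011 and 6944 CPM in proximal and 4790, 2595, 3440 and 2379 CPM in distal libraries (-0.48 ± 0.63 with 8). Bcan, a proteoglycan of nervous tissue, was at 2.82, 1.32 and 3.29 CPM in HSCR proximal 2 to 4 and had 0 counts in each of HSCR distal 2 to 4. Timp4, an inhibitor of matrix metalloproteinases, was at 0.400, 1.86, 0.165 and 0.680 CPM in proximal and 0.343, 8.98, 8.74 and 8.23 CPM in distal libraries (3.29 ± 0.89 with 6 libraries, adjusted p = 0.920, quasi-likelihood test, past both limits in DESeq2). Efemp1, an elastic fibre protein, was at 8.08, 7.09 and 7.37 CPM in HSCR proximal 2 to 4 and 12.5, 36.3 and 42.7 CPM in HSCR distal 2 to 4, but at 17.0 and 19.6 CPM in the libraries numbered 1. The medians with 6 libraries were -0.11 for 11 laminin chains, -0.21 for 58 matrix glycoproteins and proteoglycans, -0.29 for 40 proteases, inhibitors and crosslinkers, -0.01 for 33 TGF-beta and fibrosis effectors and 0.12 for 47 WNT, BMP and retinoic acid genes. Fibroblast genes had a median of -0.15 over 24 members. With 8 libraries the medians of these 6 lists were -0.31, -0.21, -0.17, -0.03, 0.0032 and -0.10.

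Secreted signals and other enzymes were read in the same way. Among all genes, 6.42% had all 3 distal libraries numbered 2 to 4 above all 3 proximal ones. Sfrp1, a WNT antagonist, was at 27.6, 55.7 and 52.2 CPM in HSCR proximal 2 to 4 and 105, 136 and 79.3 CPM in HSCR distal 2 to 4 (1.21 ± 0.42, adjusted p = 0.920, quasi-likelihood test). Grem1, a BMP antagonist, was at 665, 16.8, 20.1 and 132 CPM in proximal and 9.72, 413, 514 and 77.8 CPM in distal libraries, so that the libraries numbered 1 and 4 went against the other pairs. Inhba, which encodes the activin A subunit and belongs to the position score, was at 13.9, 2.85, 1.38 and 2.04 CPM in proximal and 2.49, 24.7, 16.2 and 1.75 CPM in distal libraries. Il13ra2, a decoy receptor of interleukin 13, was at 0 to 0.825 CPM in the 4 proximal libraries and at 0, 3.35, 21.3 and 4.98 CPM in distal libraries, and its log2 fold change was 5.58 with 6 libraries and 4.34 in WT mice. Pi15, a secreted peptidase inhibitor, was at 28.5, 3.36, 1.27 and 1.93 CPM in proximal and 13.4, 14.5, 16 and 21.5 CPM in distal libraries. Its log2 fold change was 2.99 ± 0.52 with 6 libraries and 0.02 ± 0.48 in WT mice. Fmod, a collagen-binding proteoglycan, was at 55.9, 0.987, 1.32 and 2.65 CPM in proximal and 14.7, 17.5, 9.44 and 4.01 CPM in distal libraries. In both genes HSCR proximal 1 was the highest of all 8. Serpine2, a protease inhibitor, was at 120, 35.4, 418 and 220 CPM in proximal and 327, 42.3, 47.9 and 90.5 CPM in distal libraries and overlapped in both comparisons.

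**Figure D4:**
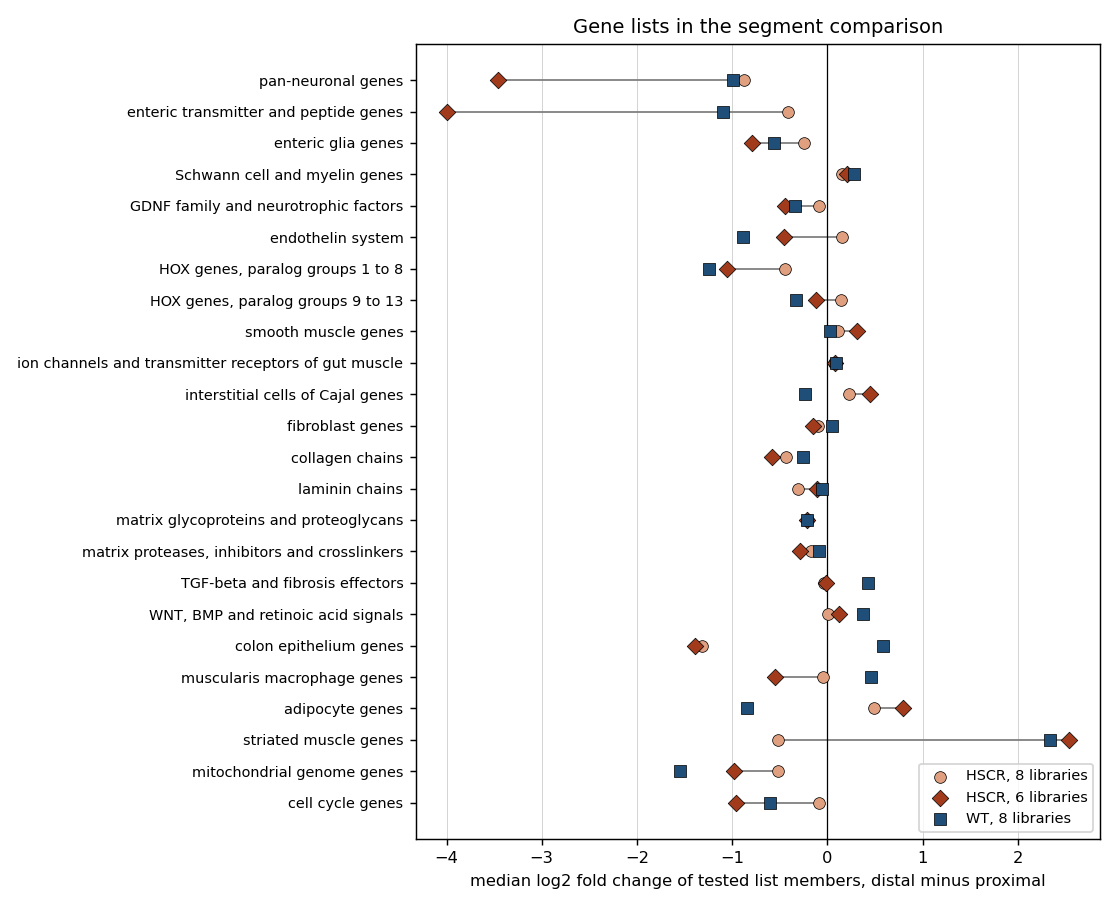
Median log2 fold change, distal minus proximal, of the tested members of 24 gene lists in HSCR mice with 8 libraries (circles), in HSCR mice with 6 libraries (diamonds) and in WT mice with 8 libraries (squares). The pan-neuronal median lies at -0.87, -3.45 and -0.99, the striated muscle median is -0.52, 2.54 and 2.33, the collagen median -0.44, -0.58 and -0.26.

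In few genes did the 8 libraries fall apart by segment label. All 4 distal libraries were above all 4 proximal ones for 122 of the 17086 tested genes (0.714%) and below them for 104 (0.609%). The genes given here were named for their small p in the same comparison, so their separation is a description and no test. Fmo2, a flavin-containing monooxygenase, was at 31.8, 31.0, 41.0 and 44.1 CPM in proximal and 45.9, 96.7, 233 and 333 CPM in distal libraries. The lowest distal library, HSCR distal 1, stood just above the highest proximal one. The log2 fold change was 2.23 ± 0.57 with 8 libraries (unadjusted p = 0.00356, adjusted p = 0.9998, quasi-likelihood test) and 2.11 in WT mice, and Fmo2 is 1 of the genes of the position score. Nt5c2, a cytosolic nucleotidase, was at 25.6 to 30.8 CPM in proximal and 37.0 to 72.2 CPM in distal libraries (0.85 ± 0.27). Sult5a1, a sulfotransferase, was at 0.716 to 1.40 CPM against 1.51 to 7.57 CPM. Fmo1, from the same enzyme family as Fmo2, was at 10.7, 3.77, 0.937 and 4.76 CPM in proximal and 16.3, 67.4, 10.6 and 30.3 CPM in distal libraries, where HSCR proximal 1 reached the lowest distal library. Klf15, a transcription factor induced by glucocorticoids, was at 1.20 to 4.29 CPM in proximal and 2.77, 3.73, 30.2 and 119 CPM in distal libraries, so its difference rests on HSCR distal 3 and 4.

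Among genes lower in every distal library, Emid1, an extracellular protein with an EMI domain, was at 32.6, 40.4, 23.3 and 26.4 CPM in proximal and 16.3, 14.8, 15.9 and 13.5 CPM in distal libraries. The means were 30.7 ± 7.57 and 15.1 ± 1.28 CPM (SD, n = 4 each), a log2 fold change of -1.02 ± 0.26 (unadjusted p = 0.00349, adjusted p = 0.9998, quasi-likelihood test). Ncoa7 was at 24.7, 51.0, 51.7 and 35.6 CPM in proximal and 20.5, 19.0, 16.2 and 19.8 CPM in distal libraries (-1.11 ± 0.29). Oma1, a protease of the mitochondrial inner membrane, was at 13.1 to 17.5 CPM in proximal and 5.37 to 8.15 CPM in distal libraries (-1.06 ± 0.31). B4galnt2, a glycosyltransferase of the gut epithelium, was at 5.42, 53.0, 33.0 and 1.29 CPM in proximal and 0.686, 1.12, 0.540 and 0.599 CPM in distal libraries, and Apol10a at 3.45, 133, 33.5 and 1.57 CPM against 0, 0, 0.243 and 0.346 CPM. DESeq2 with 8 libraries called B4galnt2, Apol10a and Slc51a lower and Crabp2 higher, and the first 3 were highest in HSCR proximal 2, the library with the most epithelium genes. Crabp2, a carrier of retinoic acid, had at most 0.0716 CPM in any proximal library and 0.315, 7.68, 0.971 and 0.369 CPM in distal libraries.

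**Figure D5:**
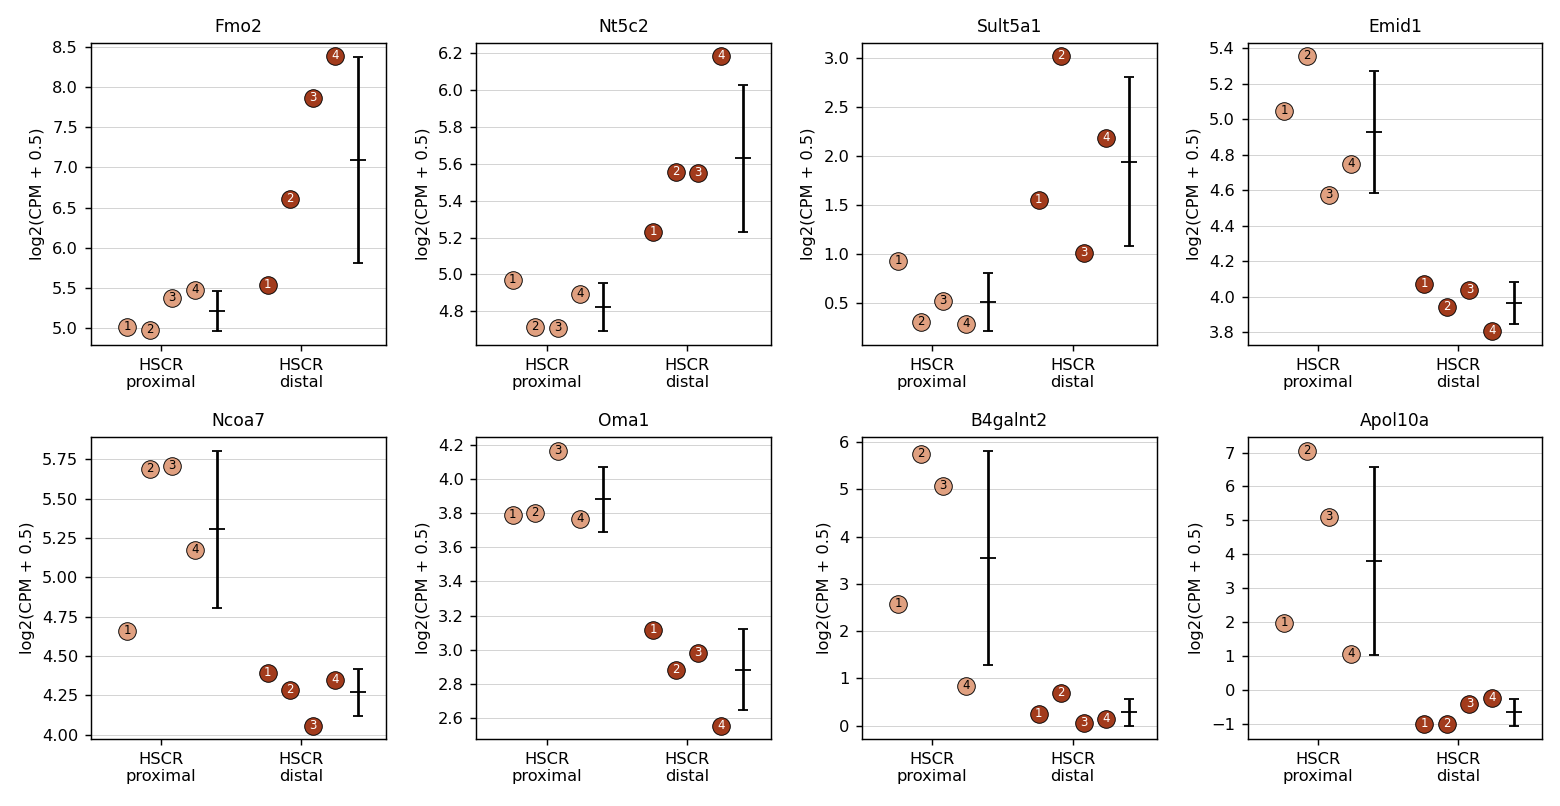
Levels of 8 genes, shown because their libraries do not overlap, whose 4 HSCR distal libraries lie all above (Fmo2, Nt5c2, Sult5a1) or all below (Emid1, Ncoa7, Oma1, B4galnt2, Apol10a) the 4 HSCR proximal libraries, as log2(CPM + 0.5); numbered circles are replicates and bars the mean ± SD of 4 libraries. Emid1 and Oma1 differ by about 1 on this scale with little spread, whereas B4galnt2 and Apol10a spread widely among the proximal libraries.

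Markers of other tissues moved with the libraries more than with the segment. Colon epithelium genes had a median of -1.39 with 6 libraries and 27 of 30 were negative, with 0 past the unadjusted limit and 0 separated, and a median of -1.32 with 8 libraries. Tff3, a goblet cell peptide, was at 32.2, 1851, 88.6 and 5.15 CPM in proximal and 15.1, 376, 99.1 and 2.03 CPM in distal libraries. Against that spread, the antimicrobial lectins of inflamed epithelium were lower in each of HSCR distal 2 to 4 than in any proximal library. Reg3b was at 374, 449, 2107 and 26.8 CPM in proximal and 119, 6.26, 0.324 and 1.5 CPM in distal libraries, and Reg3g at 79.0, 60.1, 220 and 6.12 CPM against 52.0, 0, 0.809 and 0.599 CPM. HSCR distal 3 was rich in epithelium genes and held 0.324 CPM of Reg3b. DESeq2 called both lower with 6 libraries, beside 1.11% of all genes, and the quasi-likelihood test gave an adjusted p of 0.920 for each. They were the 2 called of 19 neutrophil and acute inflammation genes with an adjusted p in DESeq2. That list as a whole did not go with them, with 8 of 15 tested members positive and a median of 0.37 with 6 libraries.

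Striated muscle genes had a median of 2.54 with 6 and -0.52 with 8 libraries. Acta1, skeletal muscle α-actin, was at 1219, 9.43, 78.3 and 57.8 CPM in proximal and 224, 691, 53.6 and 7.26 CPM in distal libraries, so 1 library of each label was high. Adipocyte genes had a median of 0.80 with 6 and 0.49 with 8 libraries, and Cfd and Adipoq, secreted products of fat cells, were highest in HSCR distal 2 and 4, at 27.4 and 118 CPM and at 10.7 and 15.0 CPM. The other HSCR libraries held at most 2.51 and 1.18 CPM of them. Mitochondrial genome genes were negative in 13 of 13 members (median -0.98) and cell cycle genes in 24 of 24 (median -0.96) with 6 libraries, with 0 past the unadjusted limit in either list. Their medians with 8 libraries were -0.52 and -0.09. The mitochondrial list was highest in HSCR proximal 4. Muscularis macrophage genes had a median of -0.55 with 17 of 20 negative and 3 lower at the unadjusted limit with 6 libraries, beside 3.14% of all genes, and of -0.04 with 11 negative and 0 lower with 8. The medians with 6 libraries were -0.17 for 17 endothelial, -0.43 for 14 mesothelial, 0.37 for 15 neutrophil and acute inflammation, -0.61 for 9 lymphocyte and plasma cell, -0.47 for 5 red blood cell and 0.18 for 20 immediate early genes. With 8 libraries they were -0.17, 0.079, -0.75, -0.40, -0.42 and -0.50. Of the 14 pancreatic acinar and the 11 found male accessory gland genes only 4 and 2 were tested.

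The WT mice gave the same segment comparison with a plexus in both segments. The quasi-likelihood test called 3 of 16566 genes (0.0181%), with 3.17% higher and 2.06% lower in distal colon at the unadjusted limit. Pan-neuronal genes had negative log2 fold changes there as well, with a median of -0.99 and 37 of 39 negative but 0 past the unadjusted limit, and transmitter and peptide genes had a median of -1.10. Elavl4 was at 31.8, 72.4, 175 and 137 CPM in WT proximal and 2.54, 22.8, 105 and 73.9 CPM in WT distal libraries. In Elavl4 the lowest WT distal library was above each of HSCR distal 2 to 4. WT proximal 3 and 4 held the most, while WT proximal 1 was below WT distal 3 and 4. Over the whole pan-neuronal list WT distal 1 had a mean log2 CPM of 2.12, beside 2.04 in HSCR distal 2, and WT distal 2 to 4 had 3.75 to 6.05. Over the transmitter and peptide list WT distal 1 (0.32) was below HSCR distal 3 (0.59).

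Whether the segment difference itself differed between HSCR and WT mice was tested as an interaction in 1 fit of 4 groups. No gene passed with 16 libraries (0% of 18619 called, smallest adjusted p 0.99997, 112 higher and 157 lower at an unadjusted p under 0.05) nor with the 2 HSCR libraries numbered 1 left out, where the smallest adjusted p was 0.9999. With 14 libraries the median difference was -2.52 for 39 pan-neuronal genes, with 36 negative and 8 lower at the unadjusted limit. The median was -0.12 for all 19129 tested genes, of which 262 were lower (1.37%) and 113 higher (0.591%) at that limit. Calb2 had the smallest p among them, with a difference of -9.90 ± 1.72 that rests on the 2 counts of HSCR distal 2 to 4. For Nsg2 the difference was -4.77 ± 1.30, for Ret -3.57 ± 1.82 and for Ednrb -0.89 ± 0.66, each with an adjusted p of 0.9999. With all 16 libraries it was 0.22 ± 1.94 for Nsg2, 1.53 ± 1.15 for Ednrb and -2.62 ± 2.23 for Calb2. The 14-library values are therefore partly set by leaving out a pair whose neuronal genes were known, and are descriptions. Collagen chains had a median difference of -0.53 and smooth muscle genes of 0.29 with 14 libraries. Adipocyte genes had a median difference of 1.88 with 16 of 17 positive and 7 higher at the unadjusted limit, none of them past adjustment, and Cfd and Adipoq had negative log2 fold changes in WT mice (-3.17 and -2.51). The 6 genes with the smallest p of the 16-library interaction were Ddx4, Tmem190, Egfros, Cyp2e1, Plin1 and Hoxa9. The first 3 had at most 1.07 CPM in any HSCR library, Cyp2e1 was highest in HSCR distal 4 (31.3 CPM) and Plin1 in HSCR distal 2 (6.15 CPM), the libraries rich in Cfd and Adipoq, and Hoxa9 was at 10.2 to 18.5 CPM in HSCR proximal and 18.4 to 48.4 CPM in HSCR distal libraries.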

How the data were processed

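Counted reads per gene and FPKM values were deposited by the authors in 1 table of 56748 genes and 16 libraries. Poly(A) RNA was sequenced, reads were aligned to mm39 with HISAT2 2.2.1 and counted per gene with featureCounts 2.0.6 against a GENCODE gene model, as given by the submitters' processing notes and the study's methods. The release of the gene model and the strand setting of the counting are not given in the sources used here, so overlapping and antisense genes may share counts. The FPKM values deposited by the authors are counts scaled per kilobase of the gene length column and per library, and were used only to rank genes by level within lists. Gene lengths were used as deposited. Columns with the authors' own comparisons (fold changes, p-values, group means) were not used, nor was a second table with such a comparison of the proximal groups.

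Libraries were grouped by genotype and segment from the titles. Counts were filtered with filterByExpr, normalised by TMM and tested with the quasi-likelihood test of edgeR 4.0.16 in R 4.3.3, with Benjamini-Hochberg adjustment over all tested genes. The HSCR distal libraries were compared with the HSCR proximal libraries (4 against 4, and 3 against 3 without replicates 1), the WT segments in the same way, and the difference of both segment differences in 1 fit of 4 groups. A call needed an adjusted p under 0.05 and a log2 fold change beyond 1. CPM values used TMM factors over the 16 libraries, and scores are means of log2(CPM + 0.5). The procedure was tested on simulated data, where, at the variability measured here, quasi-likelihood made no calls with 6 libraries and DESeq2 made nearly as many false calls as true ones. A gene without a call is therefore not shown to be unchanged, and a DESeq2 call with 6 libraries is a description. DESeq2 1.42.0, limma 3.58.1 (voom), the likelihood ratio test, RUVr factors, other normalisations and filters were alternatives. So were a replicate block, a term called the naming series, and leaving out each library. The naming series term only set the libraries numbered 3 and 4 apart from those of lower number. It merged the series that occurs among HSCR libraries in the proximal group alone with another series. The confounding of that series with the segment was therefore not adjusted for. The 8 HSCR libraries held between 22939717 and 45831881 counts, and a library with 0 counts of a gene allows up to 3 by counting error alone.

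The libraries compared and the 35 gene lists were chosen with earlier results of these data known. Genes were named by a fixed rule. It took the endothelin system and the genes with the smallest p in each direction (12 with 8 libraries, 8 with 6). In each list it took up to 6 called members, or otherwise the 3 with the smallest p with 6 libraries. The list member with the highest mean FPKM was added, as were the 6 genes with the smallest p for the interaction of segment and genotype. Predicted genes were counted and not named. Some named genes are not reported here.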

Additional observations from a re-analysis of the deposited data

Results flagged for a closer look

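Single libraries stood apart from the other 3 of their group in 33 of 225 groups of 4 values by Dixon's ratio, the gap to the nearest library over the whole range, against the 95% limit for 4 values. Chance flags about 1 in 20 groups, or 11.2 of them, but that number is no measure for these genes, many of which were named for a small p with the libraries numbered 1 left out. That choice favours genes in which HSCR distal 1 stands apart from HSCR distal 2 to 4, and genes of 1 list are not independent.

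The library labelled HSCR distal 1 accounts for 15 of them. It was the highest distal library for Elavl4 (0.881), Nsg2 (0.89), Chrna3 (0.927), Calb2 (0.966), Pdyn (0.912), Gabrg3 (0.968), Tm4sf4 (0.987), Ret (0.839), Gfap (0.895), Gpr37l1 (0.92), Bcan (1.0), Col26a1 (0.943), Ece2 (1.0, at 0.429 CPM) and the GDNF and neurotrophic score (0.964). It was the lowest for Timp4 (0.966). HSCR distal 2 was the lowest for Actg2 (0.938) and Hoxa5 (0.9) and the highest for the striated muscle score (0.856), and HSCR distal 3 was the highest for the pancreatic acinar score (0.92).

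Among proximal libraries, the library labelled HSCR proximal 1 was the highest for Evx2 (0.945), Col4a3 (0.916), Efemp1 (0.853) and the striated muscle score (0.919). HSCR proximal 2, the library with the most epithelium genes, was the lowest for the scores of TGF-beta and fibrosis effectors (0.865), fibroblast genes (0.87), ion channels and receptors of gut muscle (0.936), laminin chains (0.912), matrix glycoproteins and proteoglycans (0.93) and matrix proteases, inhibitors and crosslinkers (0.899). HSCR proximal 3 was the highest for Oma1 (0.907). HSCR proximal 4 was the highest for the mitochondrial score (0.872) and, at the level of single reads, for Crabp2 (1.0) and Cyp2e1 (1.0).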

How the results depend on the processing

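The number of calls depended on the tool. Against 0 calls with 8 libraries, DESeq2 gave 4, RUVr with 1 factor 4 and RUVr with 4 factors 349, while the other alternatives gave 0. Against 0 calls with 6 libraries, DESeq2 gave 273, the likelihood ratio test 111, RUVr with 1 factor 247 and no filter on low counts 1, and leaving out 1 library gave 0 to 10. In WT mice the 3 calls became 70 with DESeq2, 1 with the replicate block, 0 without both libraries numbered 1 and 0 to 2 with 1 library left out. The interaction of segment and genotype gave 9 calls with DESeq2. Genes at an unadjusted p under 0.05 with 8 libraries numbered 254, and 742 with DESeq2, 1350 with limma-voom, 616 and 2074 with RUVr of 1 and 4 factors, 795 without a filter, 476 in 1 fit of 4 groups, and 149 to 969 with libraries left out (969 without HSCR distal 1, 149 without HSCR distal 4). With 6 libraries they numbered 850, and 1669 with DESeq2, 3011 with limma-voom, 1810 with RUVr, 1328 without a filter, 1425 in 1 fit of 4 groups, 1431 with the naming series as a term, and 541 to 1519 with 1 more library left out. In WT mice they numbered 867, and 1522 with DESeq2, 1398 with the replicate block and 448 to 1187 with 1 library left out. For the interaction they numbered 269, and 562 with DESeq2 and 233 to 665 with libraries left out. The causes were not tested.

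Some HSCR libraries of 1 number also share the digits in their library names, and the others share a number only. The same digits occur in WT library names of that number, so they do not by themselves name 1 mouse. Whether such libraries came from 1 mouse is not given, and the main test did not pair them. Correlations of same-numbered deviations with 8 libraries were 0.07, 0.40, 0.07 and 0.49. The replicate block left 0 calls with 8 and with 6 libraries, and Ednrb at -0.95 with 8.

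With 8 libraries, signs turned for the genes below, and the causes were not tested. Ednrb was -1.31 with limma-voom, -0.44 with RUVr of 4 factors and -2.05 to 0.69 with libraries left out (-1.76 without HSCR distal 1). With 6 libraries it passed only under RUVr with 1 factor (-1.93, adjusted p = 0.00605). Ece1 was -0.11 with limma-voom, -0.065 and -0.13 with RUVr of 1 and 4 factors, -0.15 with the block, -0.079 with the naming series and -0.47 to 0.41 with libraries left out. Fmod was 1.08 with limma-voom, 0.38 and 0.98 with RUVr, 1.47 with the block, 0.42 with the naming series and -0.82 to 2.76 with libraries left out. Actg2 was 0.013 with DESeq2 and with RLE factors (0.0129), 0.057 with limma-voom, 0.76 and 0.70 with RUVr, 0.024 in 1 fit of 4 groups, 0.61 with the block, 0.0019 with the naming series and -0.41 to 0.36 with libraries left out. Edn3 was -0.24 with limma-voom, and RUVr with 4 factors put Evx2 at -1.55 and Cfd at -4.17. The ranges with libraries left out were -0.59 to 0.82 for Edn1, -0.12 to 1.05 for Edn3, -0.63 to 3.35 for Hoxd12, -0.33 to 8.27 for Evx2, -1.94 to 0.014 for Serpine2, -0.32 to 2.51 for Grem1, -0.20 to 0.48 for Acta2, -1.85 to 2.36 for Acta1 and -3.61 to 1.54 for Tff3. Among named genes and lists 1761 further values stayed the same. For a gene that means its direction and side of the threshold. For a list it means a median within 1 SD, taken from its library scores within the segments. A further 33 list medians moved beyond that SD with libraries left out. In the other alternatives 32 values of named genes came to an adjusted p under 0.05.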

Other observations

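The pancreatic acinar genes, which no layer of the colon is known for, had a mean log2 CPM of 2.02 in HSCR distal 3 and -0.51 to -0.31 in the other 3 HSCR distal libraries. The mean was higher still in WT distal 2, at 5.68. In the interaction with 14 libraries, the segment difference in HSCR minus that in WT mice had a median of -3.43 over 20 neutrophil and acute inflammation genes. Of these 18 were negative and 2 lower at the unadjusted limit, beside 1.37% of all genes. Only 5 genes of that list passed the filter in the WT comparison. Its mean log2 CPM was 1.84 in WT distal 1 and -0.28 to 0.09 in WT distal 2 to 4, so the median leans on 1 WT library. Colon epithelium genes had an interaction median of -1.83 over 30 members, with 26 negative and 0 lower. Immediate early genes, which respond within minutes to handling, had a median log2 fold change of 1.73 between the WT segments, and 0.18 between the HSCR segments with 6 libraries.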
